A study of Mus musculus with 8 samples.

Results

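The genes described here are 10 members of the interleukin 1 (IL-1) family and its inflammasome, chosen by symbol. They are the ligand genes Il1a, Il1b and Il18, the antagonist gene Il1rn, the receptor genes Il1r1, Il1rap, Il1r2 and Il18rap, and the inflammasome genes Nlrp3 and Casp1. Every probe set annotated to 1 of these symbols was used, which gave 18 of the 45037 probe sets tested and 10 of the 18193 genes they name. The cells were Cd11b-positive cells sorted from mouse bone marrow, a gate that takes in granulocytes and monocytes. The control group, labelled E2F1-/-2+/+3f/f, and the experimental group, labelled Mxcre;E2F1-/-2-/-3f/f, held 4 arrays each. Both groups therefore shared the E2f1 deletion, the floxed E2f3 alleles, the mixed FVB and C57BL6 background, the age of 8 weeks and 5 injections of 250 µg of pIpC, a synthetic double-stranded RNA that induces interferon, with death 24 h after the last. They differed in E2f2 and in the Cre transgene, whose Mx promoter answers to interferon in many cell types and is not restricted to myeloid cells. Cre is meant to cut the floxed E2f3 alleles, so by design the experimental group was to lose E2f3 as well. How complete that loss was is not given by the labels. No control carried Cre, so effects of Cre and of the E2f genotype cannot be told apart. The labels do not say whether each sample was a separate mouse or a pool, so a p-value here reflects how far these 8 arrays scatter, part of which may be technical.

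IL-1 beta and IL-18 are made as inactive precursors. The sensor NLRP3 and the adaptor ASC assemble an inflammasome that activates caspase 1, which cuts both precursors. IL-1 alpha and IL-1 beta act through the receptor IL1R1 with its partner IL1RAP, while the antagonist IL1RN and the decoy receptor IL1R2 hold that signal down. Neutrophils and monocytes are known sources of these cytokines, and neutrophils carry much of the decoy receptor.

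Il1b and Il1rap were the members whose expression changed, and the 250 bases before their transcription starts are printed to show how unlike these promoters are. Both sequences are from RefSeq on GRCm38.p6 and run 5′ to 3′ on the gene's own strand, with capitals marking motif matches. The Il1b stretch lies at chr2:129371140-129371389 on the minus strand and the Il1rap stretch at chr16:26581455-26581704 on the plus strand.
Il1b: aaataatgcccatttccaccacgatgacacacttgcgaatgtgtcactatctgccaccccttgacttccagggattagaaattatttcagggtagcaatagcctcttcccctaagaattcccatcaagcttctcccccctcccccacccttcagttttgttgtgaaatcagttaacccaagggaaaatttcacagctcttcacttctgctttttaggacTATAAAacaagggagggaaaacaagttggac
Il1rap: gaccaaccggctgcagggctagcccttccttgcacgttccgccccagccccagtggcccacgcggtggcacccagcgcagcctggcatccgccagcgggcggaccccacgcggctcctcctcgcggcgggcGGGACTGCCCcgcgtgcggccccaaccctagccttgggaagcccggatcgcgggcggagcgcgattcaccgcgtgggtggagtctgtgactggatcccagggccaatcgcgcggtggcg
The Il1b stretch was 44.4% G and C with 2 CpG dinucleotides, and the Il1rap stretch was 74.4% G and C with 30. The medians over 32851 promoters were 52.4% and 6. The capitals in Il1b are a TATAAA whose first base lies at -31 from the start, a motif (either strand) found in 13.6% of all promoter windows of 300 bases, and those in Il1rap are a match at -119 to an NF-kB-like motif (GGGA, any 4 bases, then CC), found in 20.7%. The E2F-like motif TTTNNCGC, found in 5.17% of all windows, was in neither gene's window. Among the 14 windows of the 10 members it was found in 2, which overlap each other at starts of Il1rn. No other form of E2F motif was searched, so other E2F-like letters may be present in any window. PU.1-like GAGGAA (28.3% of all windows), C/EBP-like TTGCNNAA (10.8%) and AP-1-like TGANTCA (7.81%, its own reverse complement) had no match in either. The interferon-response-like motif (GAAA, any 2 bases, then GAAA; 3.44%) matched only downstream of the Il1rap start, at 21. A match is a description of letters, not a site.

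The arrays carried the labelled cell type. Itgam, the gene of Cd11b, read 11.50 to 11.66 in controls and 11.25 to 11.90 in experimental samples on the log2 scale, and the mean of 9 measured neutrophil markers lay between 13.10 and 13.51 in every array. Array medians were 5.01 to 5.04. E2f2 fell at 1455790_at, from 7.76 to 8.19 in controls to 7.06 to 7.47 (limma adjusted p = 0.0351), and read 9.54 to 10.20 against 9.08 to 9.53 at 1436434_at (adjusted p = 0.107). E2f3 read 7.43 to 7.67 against 7.69 to 8.07 at its brighter probe set (adjusted p = 0.201). A probe set outside a deleted part checks nothing, and where these probe sets lie was not analysed here. Replicates 1 and 2 of each group have sample codes that start with a digit and replicates 3 and 4 codes that start with a letter. Control and experimental arrays of the same code style deviated alike from their group means, so values are also given within each style, where that matters.

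Of the 10 genes, each by its brightest probe set, Il1b and Il1rap fell in the experimental samples and none rose. The test was limma across all probe sets with Benjamini-Hochberg adjustment and a threshold of 0.05, by which 3.47% of all genes changed, 1.53% higher and 1.95% lower. Counted by probe set, 3 of 18 fell and none rose, against 2.58% called, 1.03% higher and 1.55% lower, among all probe sets. The median log2 difference of the 10 genes was -0.27, with 7 below 0, and that of all genes was 0.01. The 3 ligand genes had a median of -0.36 with 1 called, the 5 antagonist and receptor genes a median of -0.18 with 1 called, and the 2 inflammasome genes lay at -0.62 and 0.38 with none called. The first 2 medians are the values of Il18 and Il18rap, neither called and each opposite in sign between the code styles. They do not show a difference between ligands and receptors.

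**Figure D1:**
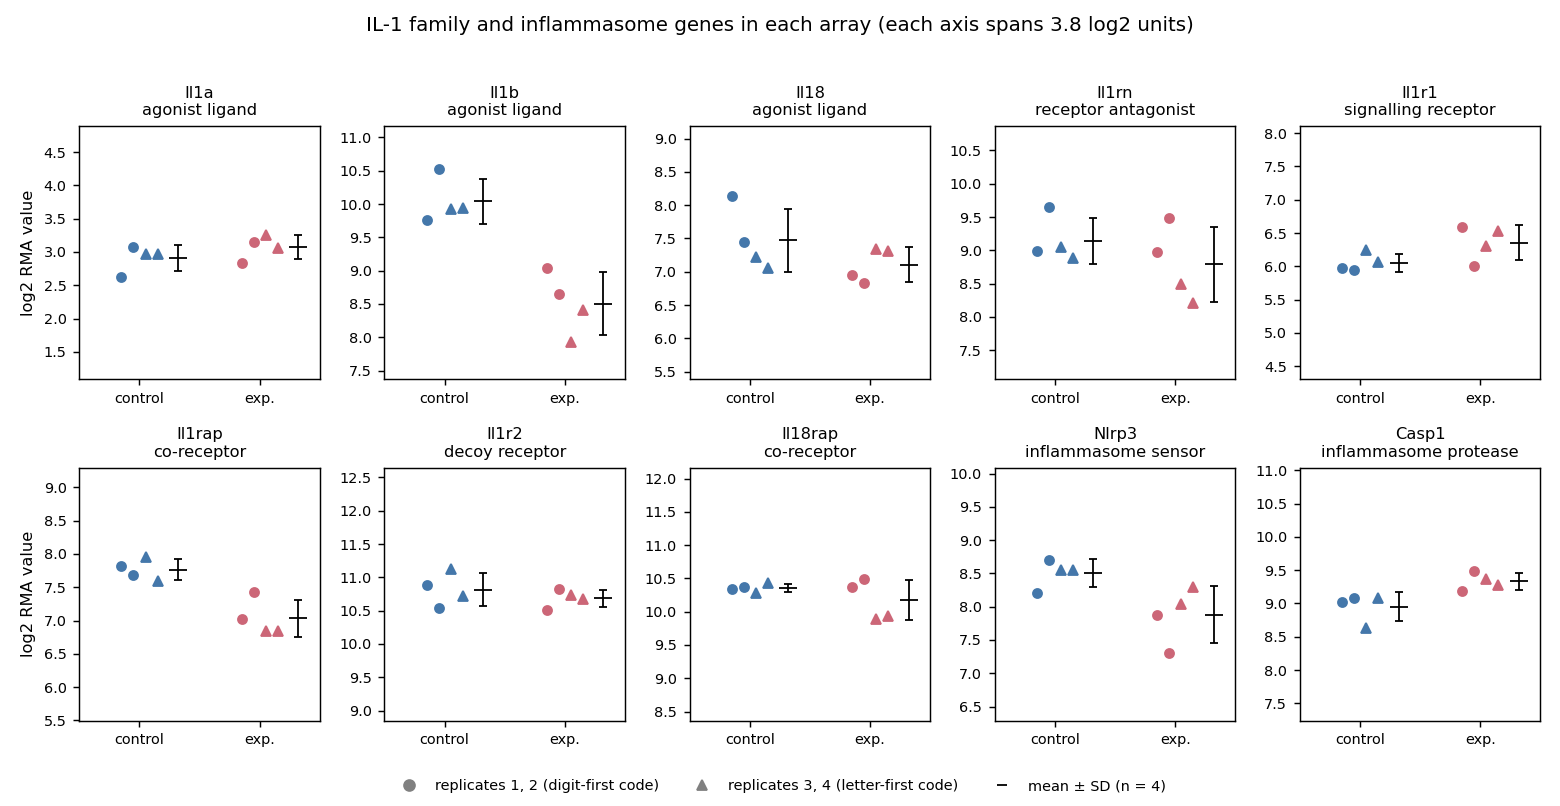
Log2 RMA values of the 10 genes, each by its brightest probe set, in the 4 control arrays (blue) and the 4 experimental arrays (red). Circles are replicates 1 and 2, triangles replicates 3 and 4, and bars the mean and SD. All experimental Il1b values lie below all control values, Il1rap is likewise apart but by less, and Casp1 is apart in the upward direction without passing the test.

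Among the ligands, Il1b, the main secreted IL-1 of myeloid cells, showed the clearest difference. Its probe set 1449399_a_at read 9.77, 10.53, 9.93 and 9.93 in control replicates 1 to 4 and 9.04, 8.65, 7.92 and 8.40 in experimental replicates 1 to 4. All experimental arrays lay below all controls, with 0.72 between the lowest control and the highest experimental value. The group levels were 10.04 ± 0.33 and 8.50 ± 0.47 (SD, n = 4 each), a log2 difference of -1.53 ± 0.24 (SE, limma adjusted p = 0.0137), so Il1b stood at 34.5% of the control level. The 95% interval of the difference ran from -2.07 to -1.001. With each array left out in turn, Il1b passed in 8 of 8 fits (adjusted p = 0.0138 to 0.0423). The difference was -1.30 within replicates 1 and 2, where 2 arrays against 2 did not pass (limma adjusted p = 0.113), and -1.77 within replicates 3 and 4 (adjusted p = 0.0190).

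Several cell markers moved with Il1b. In these bulk samples, fewer cells of a type and less RNA per cell cannot be told apart. The mean log2 level of 8 dendritic markers was 8.24 to 8.74 in controls and 7.33 to 7.58 in experimental arrays, with 4 of 8 past the threshold and lower. For 7 B cell markers it was 7.07 to 7.90 and 5.76 to 6.36 (5 lower, Pax5 and Ebf1 below the array median), and for 5 megakaryocyte markers 6.69 to 7.32 and 6.04 to 6.18 (2 lower). Neutrophil markers were also apart by a small margin, at 13.39 to 13.51 and 13.10 to 13.35 (1 of 9 lower, Csf3r). Of these, S100a8, S100a9, Camp, Ltf and Ngp read 14.11 to 14.53, while the array maxima were 14.36 to 14.54. Signals this bright may follow a change poorly, so the small margin does not show a near-constant neutrophil content. The less bright Csf3r, Cxcr2, Mmp8 and Mmp9 differed by -0.65, -0.43, -0.20 and -0.18. The 8 monocyte and macrophage markers, of which none passed, overlapped at 9.69 to 9.93 and 8.66 to 10.06. The 6 basophil, eosinophil and mast cell markers overlapped at 7.32 to 7.87 and 7.38 to 8.07, but the eosinophil genes Siglecf (1.28, limma adjusted p = 0.0326) and Epx (0.91, adjusted p = 0.00672) rose. The 4 erythroid markers, with none past the threshold, lay at 7.12 to 7.22 and 7.04 to 7.91. The 10 immediate early genes, a sign of handling or activation, had means of 8.04 to 8.27 and 7.38 to 7.89, with Ier2, Atf3 and Nr4a1 past the threshold and lower. The log2 ratio of the 3' to the 5' Actb control probe sets, which rises as RNA degrades, lay at 0.27 to 0.32 and 0.34 to 0.54. That of Gapdh overlapped, at -0.14 to -0.09 and -0.16 to 0.03. The part of these markers and of this ratio in the fall of Il1b was not tested.

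Il1a, which encodes IL-1 alpha, was dim at its only probe set 1421473_at. It read 2.62 to 3.07 in controls and 2.84 to 3.25 in experimental arrays, with overlap, and 16.4% of probe sets had a lower mean. Its difference of 0.17 ± 0.13 (SE, 95% interval -0.11 to 0.46) did not pass (limma adjusted p = 0.545), and a probe set this dim may not follow its transcript.

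Il18, which encodes the other caspase 1 substrate of the set, read 8.14, 7.45, 7.23 and 7.06 in control replicates 1 to 4 and 6.95, 6.83, 7.34 and 7.31 in experimental replicates 1 to 4. The groups overlapped, and the difference of -0.36 ± 0.23 (SE, 95% interval -0.87 to 0.14) did not pass (limma adjusted p = 0.458). Within replicates 1 and 2 it was -0.91, and within replicates 3 and 4 it was 0.18, opposite in sign. The mean of the monocyte and macrophage markers differed by -0.91 and 0.20 in the same subsets. The part of monocyte markers in these Il18 values was not tested.

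Il1rn, the secreted antagonist that occupies IL1R1 without signalling, had 3 probe sets. The brightest, 1451798_at, read 8.99, 9.65, 9.04 and 8.88 in controls and 8.97, 9.49, 8.50 and 8.21 in experimental replicates 1 to 4. Replicates 1 and 2 of both groups lay close together, while experimental replicates 3 and 4 lay below every control. Its difference was -0.35 ± 0.27 (SE, limma adjusted p = 0.562), and the 2 code styles gave -0.09 and -0.61. The other 2 probe sets differed by -0.49 ± 0.30 (1423017_a_at, adjusted p = 0.453) and -0.23 ± 0.34 (1425663_at, adjusted p = 0.788) and had the same order of replicates, with experimental replicate 2 the highest of its group and replicate 4 the lowest in each.

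Il1r1, the signalling receptor, was modest in level. Its probe set 1448950_at read 5.95 to 6.25 in controls and 6.01 to 6.60 in experimental arrays, overlapping, with a difference of 0.30 ± 0.14 (SE, 95% interval -0.01 to 0.61, limma adjusted p = 0.310). Its second probe set, 1459777_at, read 1.99 to 2.26 in all 8 arrays, where 1.58% of probe sets had a lower mean, and carries little information.

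Il1rap, the partner without which IL1R1 does not signal, and which also serves the receptors of IL-33 and IL-36, fell at 2 of its 5 probe sets. At the brightest, 1421844_at, controls read 7.82, 7.68, 7.96 and 7.60 and experimental replicates 7.02, 7.42, 6.84 and 6.84. No experimental array reached a control, though replicate 2 came within 0.18 of the lowest. The levels were 7.77 ± 0.16 and 7.03 ± 0.27 (SD, n = 4 each), a difference of -0.73 ± 0.15 (SE, limma adjusted p = 0.0326), or 60.1% of control. A second probe set, 1449585_at, read 5.50, 5.52, 5.91 and 5.60 against 4.67, 5.24, 5.03 and 4.82, a difference of -0.69 ± 0.14 (adjusted p = 0.0371). The probe set 1421843_at was apart as well at -0.69 ± 0.19 but did not pass (adjusted p = 0.103). It passed with replicate number as a block (adjusted p = 0.0311), a fit that called 5.06% of all probe sets. Thus 3 of 5 probe sets put the experimental level at 60.1% to 62.0% of control. Of these, 1421844_at and 1421843_at are annotated to the same source sequence, so they are not separate evidence. Which transcript forms of Il1rap each probe set reads was not determined. The other 2, 1442614_at and 1439697_at, read 2.42 to 3.36 in all arrays, and differed by -0.18 and 0.06 with overlap.

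The calls of Il1rap changed with the arrays used. In the fits that leave out 1 array, 1421844_at (adjusted p = 0.00977 to 0.0956) and 1449585_at (0.0210 to 0.0953) passed only without experimental replicate 2. Their differences kept their sign throughout, at -0.86 to -0.67 and -0.79 to -0.60, and the 2 code styles gave -0.53 and -0.94 at 1421844_at. With quantile normalization 1421844_at did not pass (adjusted p = 0.0542).

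Il1r2, the decoy that binds IL-1 without a signalling domain, gave a strong signal in all arrays, and its difference was not called. Probe set 1419532_at read 10.89, 10.54, 11.12 and 10.71 in controls and 10.51, 10.82, 10.73 and 10.68 in experimental replicates. Each group's values lay across the other's, with a difference of -0.13 ± 0.13 (SE, limma adjusted p = 0.678). The 95% interval of -0.43 to 0.17 does not reach the size of the Il1b difference.

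Il18rap, the accessory chain of the IL-18 receptor, which NK cells, some T cells and neutrophils carry, did not pass at either probe set. The brighter, 1456545_at, read 10.34, 10.37, 10.28 and 10.43 in controls and 10.37, 10.50, 9.89 and 9.94 in experimental replicates, a difference of -0.18 ± 0.14 (SE, limma adjusted p = 0.578). Replicates 1 and 2 of the experimental group were within or above the control range and replicates 3 and 4 below it. The differences within the code styles were 0.08 and -0.44, and at 1421291_at -0.03 and -0.60 (overall -0.32 ± 0.26, adjusted p = 0.590). Markers of T and NK cells, 8 measured with none past the threshold, had mean levels of 6.85 to 8.01 and 7.21 to 8.20 and differed by 0.48 and 0.33 in the same subsets. Their part in the Il18rap values was not tested.

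**Figure D2:**
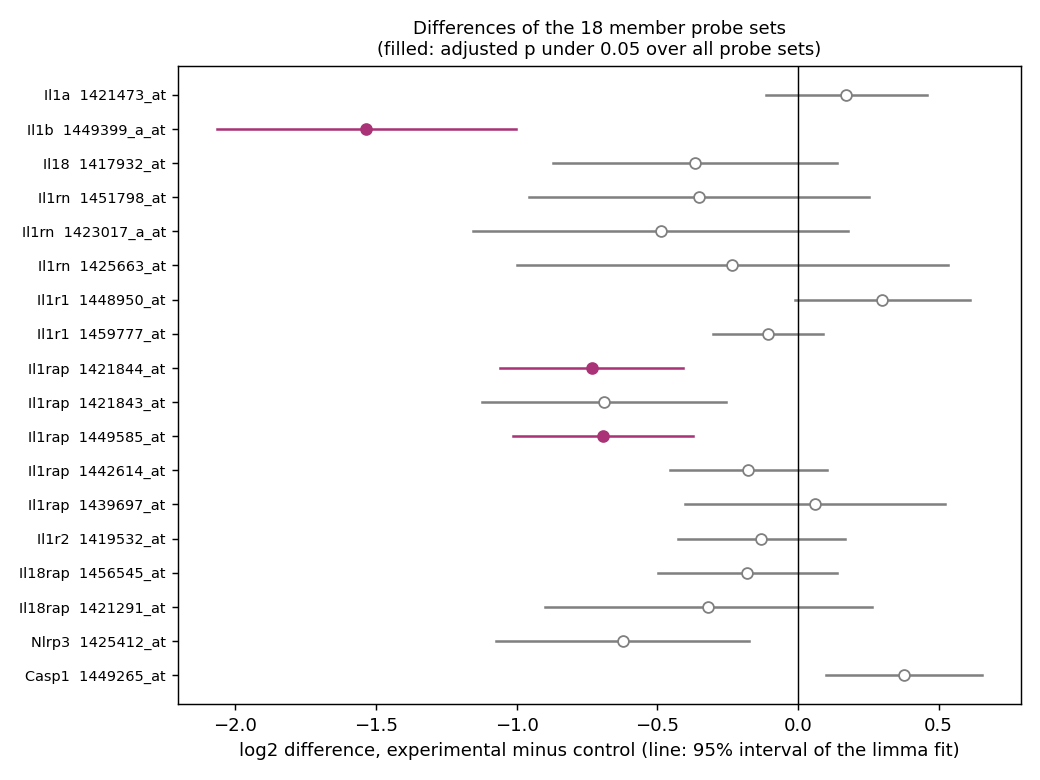
Log2 difference, experimental minus control, of all 18 probe sets of the 10 genes, with the 95% interval of the limma fit. Filled points, for Il1b and 2 of 5 Il1rap probe sets, passed an adjusted p of 0.05, and the intervals of Nlrp3 and Casp1 lie on opposite sides of 0 without passing.

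**Figure D3:**
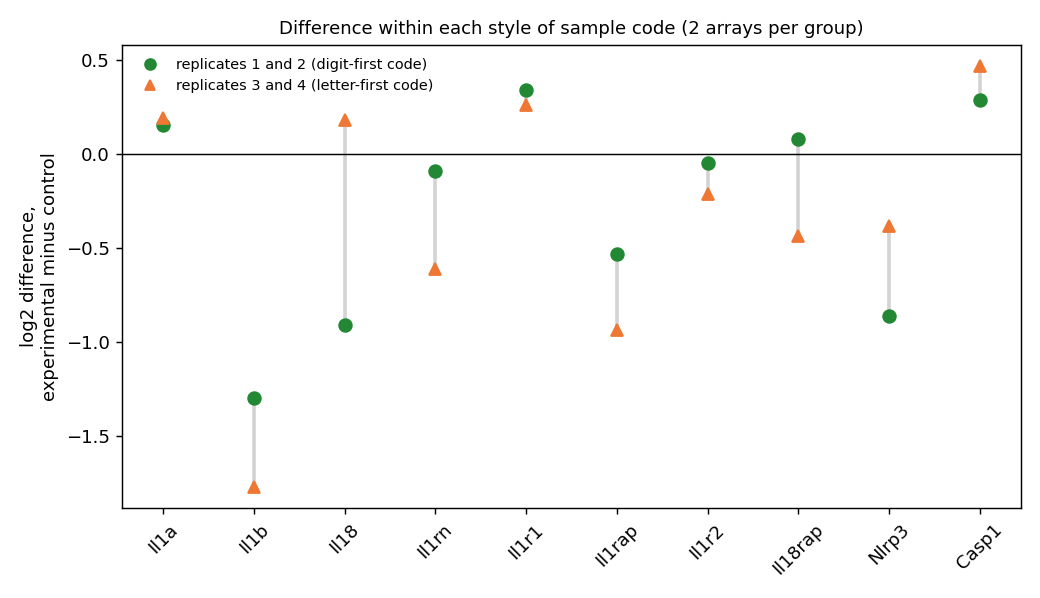
Log2 difference of each of the 10 genes within replicates 1 and 2 (circles) and within replicates 3 and 4 (triangles), with 2 arrays per group in each. Il1b, Il1rap, Nlrp3, Il1rn and Il1r2 lie below 0 in both, Casp1, Il1r1 and Il1a above 0 in both, and Il18 and Il18rap on opposite sides.

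Of the inflammasome pair, Nlrp3, the sensor, was not called. It read 8.20, 8.69, 8.56 and 8.55 in controls and 7.87, 7.30, 8.04 and 8.30 in experimental replicates at 1425412_at. Experimental replicates 1 to 3 lay below every control, and replicate 4 lay above control replicate 1. The levels were 8.50 ± 0.21 and 7.88 ± 0.43 (SD, n = 4 each), a difference of -0.62 ± 0.20 (SE, limma adjusted p = 0.147). Casp1, the protease, read 9.02, 9.09, 8.63 and 9.08 in controls and 9.19, 9.49, 9.37 and 9.28 in experimental replicates at 1449265_at. All experimental arrays were above all controls, but the difference, 0.38 ± 0.12 (SE), was not called either (limma adjusted p = 0.154). By groups that do not overlap, Il1b, Il1rap and Casp1 were 3 of 10 genes, against 12.4% of all genes, and 5 of 18 probe sets, against 10.8% of all probe sets.

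Whether Il1b fell by more than its receptors, antagonist and decoy was tested on the gap in each array, the log2 value of Il1b minus that of the other gene. Levels of different probe sets are not comparable, so only the change of a gap between groups is read. In all, 8 gaps were compared by a two-sided exact permutation test, whose smallest p with 4 against 4 arrays is 0.0286, and adjusted over the 8. The gaps were chosen with earlier results of these data known, so their p-values describe these arrays and are not an independent test. The gap of Il1b to Il1rn was 0.77, 0.87, 0.88 and 1.05 in controls and 0.07, -0.84, -0.57 and 0.19 in experimental replicates. It changed by -1.18 ± 0.26 (SE, n = 4 per group), with no overlap (exact p = 0.0286, adjusted p = 0.0457). The change was nearly equal within replicates 1 and 2 (-1.21) and within replicates 3 and 4 (-1.16), although Il1rn itself differed between those subsets.

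The gap of Il1b to the decoy Il1r2 was -1.12, -0.01, -1.19 and -0.78 in controls and -1.47, -2.17, -2.81 and -2.28 in experimental replicates. It changed by -1.40 ± 0.39 (SE, n = 4 per group, exact p = 0.0286, adjusted p = 0.0457), again without overlap. Against the receptor Il1r1 the change was -1.83 ± 0.31, with the same exact p. Il1b alone also had an exact permutation p of 0.0286, and every Il1b gap holds the same Il1b values. These gaps are thus not separate results, and the adjusted p of 0.0457 rests on tied p-values. The gap to Il1a was among the 8, but with Il1a this dim it adds nothing to the change of Il1b itself. With p adjusted over the other 7 gaps, an alternative chosen after seeing the data, the smallest adjusted p was 0.050, which is not under the threshold. With 1 array left out, the gaps to Il1rn and Il1r1 kept an exact p of 0.0286 in 8 of 8 sets, while that to Il1r2 had 0.0571 without any 1 of the controls. Groups that are apart stay apart when an array is left out, so these sets do not test the separation. The values of 0.0571 came without overlap. The gap of Il1b to Il1rap changed by -0.80 ± 0.30 and overlapped (exact p = 0.0857, adjusted p = 0.0980), so a larger fall of Il1b than of Il1rap was not shown. Without experimental replicate 1 its exact p was 0.0286. That to Il18 changed by -1.17 ± 0.47 (exact p = 0.0857, adjusted p = 0.0980), with -0.39 and -1.95 within the code styles.

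The gap of Nlrp3 to Casp1 was -0.81, -0.39, -0.07 and -0.53 in controls and -1.31, -2.19, -1.33 and -0.97 in experimental replicates. Its mean went from -0.45 ± 0.31 to -1.45 ± 0.52 (SD, n = 4 per group), without overlap (exact p = 0.0286, adjusted p = 0.0457), though neither gene passed alone. This gap, too, was chosen with earlier results known, and its p is descriptive. Without control replicate 2, 3 or 4 or experimental replicate 2 its exact p was 0.0571, again without overlap of the groups. That of Il18 to Il18rap changed by -0.19 ± 0.37 (exact p = 0.629, adjusted p = 0.629).

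**Figure D4:**
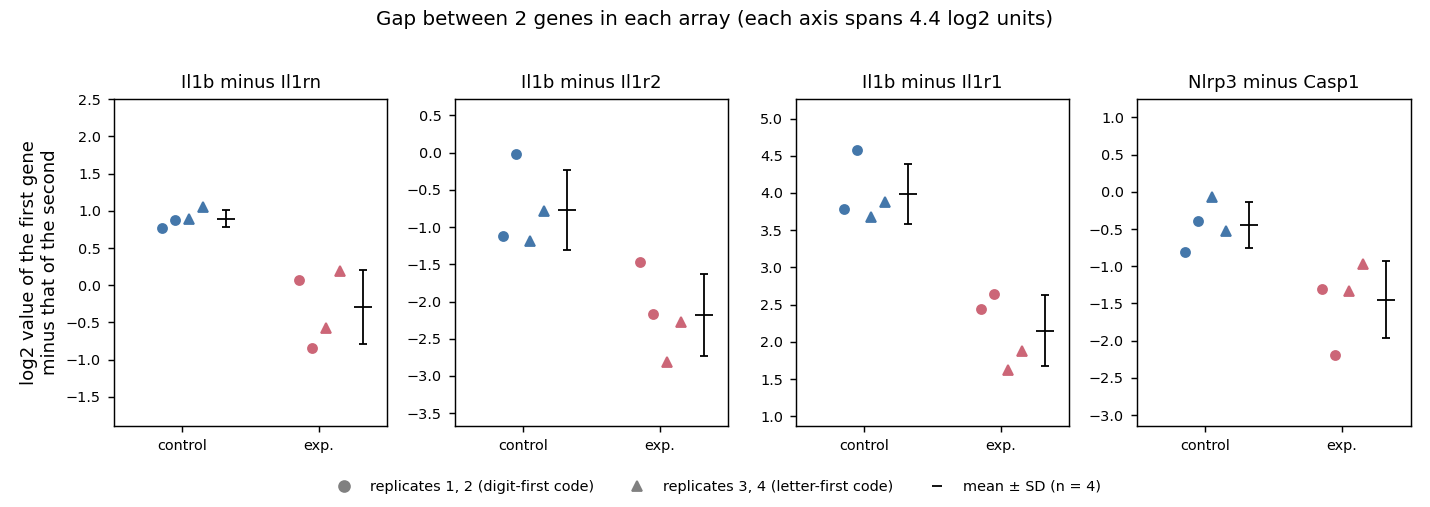
Log2 value of one gene minus that of another in each array, for Il1b against Il1rn, Il1r2 and Il1r1 and for Nlrp3 against Casp1, with mean and SD per group (n = 4). In all 4 panels the experimental arrays lie below the control arrays, with changes of -1.18, -1.40 and -1.83 for the Il1b gaps and means of -0.45 and -1.45 for Nlrp3 against Casp1.

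The genes nearest to Il1b in profile were found among 16321 others by the root mean square distance between log2 values over the 8 arrays, each gene centred on its own mean. They were Acta2 (smooth muscle actin; distance 0.20, difference -1.51), H2ac19 (a histone H2A gene; 0.26, -1.31), H2-Ob (an MHC class II chaperone chain of B cells; 0.27, -1.19), Pf4 (a platelet chemokine; 0.28, -1.49) and Lhx1 (a homeobox factor; 0.29, -1.49). Nearest to Il1rap were Lhfpl2 (0.13, -0.86), Lyrm2 (0.14, -0.75), Ets2 (a transcription factor; 0.14, -0.77), Csf1 (the macrophage growth factor; 0.14, -0.77) and Mki67 (a marker of dividing cells; 0.14, -0.80). The distance includes the group difference, so genes that fell by a like amount come first.

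Of 71 other genes listed for the IL-1 and inflammasome pathways, 58 were measured, and 2 rose and 4 fell, against 1.53% higher and 1.95% lower among all genes. With replicate number as a block, 10 of the 58 passed, in a fit that called 5.06% of all probe sets. Of 3 other ligand or antagonist genes none passed, with Il18bp, the soluble trap of IL-18, at 0.37 ± 0.14 (SE, limma adjusted p = 0.218) and Il1f10, the gene of IL-38, at -0.16 (0.501). Among 5 other receptor genes, Il1rl2, the IL-36 receptor chain that pairs with IL1RAP, rose. It read 5.61, 5.99, 6.52 and 6.38 in controls and 7.03, 6.98, 7.08 and 7.44 in experimental replicates, without overlap, a difference of 1.01 ± 0.20 (SE, n = 4 per group, limma adjusted p = 0.0300). Its dimmer probe set differed by 0.43 and did not pass (adjusted p = 0.182). Of the 8 fits on 7 arrays (adjusted p = 0.0300 to 0.0996), it passed in those lacking control replicate 3 or experimental replicate 2 and in no other. The median of the 5 receptors was 0.25.

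Within the inflammasome list, 18 genes were measured with a median of -0.001, and 1 rose and 1 fell. Pycard, which encodes the adaptor ASC, rose from 10.75, 10.86, 11.13 and 10.82 to 11.42, 11.52, 11.75 and 11.75, a difference of 0.72 ± 0.12 (SE, n = 4 per group, limma adjusted p = 0.0162). Every experimental array was above every control, and its 2 dimmer probe sets were higher by 0.37 and 0.34 without passing. Over the fits on 7 arrays its adjusted p was 0.0214 to 0.0580, and its call was lost when control replicate 1, 2 or 4 was missing. Nlrp12, an NLR protein known in mice to restrain inflammatory signalling, fell from 8.54, 9.17, 8.57 and 8.63 to 7.71, 7.95, 7.50 and 7.36, a difference of -1.10 ± 0.17 (adjusted p = 0.0140), and it kept its call in 8 of 8 fits on 7 arrays. Gsdmd, the pore-forming protein cut by caspase 1, differed by 0.23 (adjusted p = 0.245), and the NLRP3 partner gene Nek7 by -0.14 (adjusted p = 0.457).

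In the signalling list downstream of IL1R1, 1 of 15 genes passed, and the median was -0.23. Peli1, an E3 ligase that acts on IRAK kinases, fell from 9.57, 9.56, 9.31 and 9.42 to 9.08, 9.12, 8.99 and 8.92, a difference of -0.43 ± 0.10 (SE, n = 4 per group, limma adjusted p = 0.0485). Its other 4 probe sets differed by -0.52 to -0.34 without passing. This call was lost with median centring (adjusted p = 0.0581), quantile normalization (0.0539) and trended, robust eBayes (0.0640), and in the fits without 1 array it held only without experimental replicate 2 (0.0465 to 0.149). Myd88, the adaptor of the receptor complex, differed by 0.06 (adjusted p = 0.820), Irak1 by 0.33 (0.328) and the inhibitory kinase relative Irak3 by -0.52 (0.0944).

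The genes of 3 neutrophil serine proteases that can cut IL-1 family cytokines outside the cell did not pass. Their differences were 0.26 ± 0.29 for Elane, 0.70 ± 0.29 for Prtn3 and 1.08 ± 0.32 for Ctsg (SE, limma adjusted p = 0.714, 0.250 and 0.119). With code style as a block, which called 5.73% of all probe sets, Prtn3 passed (adjusted p = 0.0318).

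Of 14 genes known to respond to IL-1, 2 fell and none rose, with a median of -0.07. Ptgs2, the inducible cyclooxygenase, read 6.08, 4.93, 5.12 and 5.29 in controls and 3.38, 3.86, 4.16 and 3.06 in experimental replicates, a difference of -1.74 ± 0.29 (SE, n = 4 per group, limma adjusted p = 0.0162). Over the fits on 7 arrays its adjusted p was 0.0180 to 0.0516, the highest with control replicate 4 missing, where the call was lost. These values lie around or below the array median, and the dimmer probe set 1417263_at overlapped and did not pass (-0.73, adjusted p = 0.0963). Tnfaip3, which encodes the NF-kB inhibitor A20, read 8.32, 8.74, 8.19 and 8.34 against 7.37, 7.67, 7.11 and 7.49, a difference of -0.99 ± 0.15 (adjusted p = 0.0123), and its second probe set fell too (-0.69, adjusted p = 0.0197). Tnfaip3 kept its call in 8 of 8 fits on 7 arrays. Tnf (-0.02), Cxcl1 (-0.07), Cxcl2 (-0.13) and Nfkbia (-0.06) did not pass, and Saa3, an acute phase gene, differed by 1.32 ± 0.36 with no overlap of the groups but did not pass (adjusted p = 0.0912). The immediate early genes given above were lower in the same arrays, and their part in these values was not tested.

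**Figure D5:**
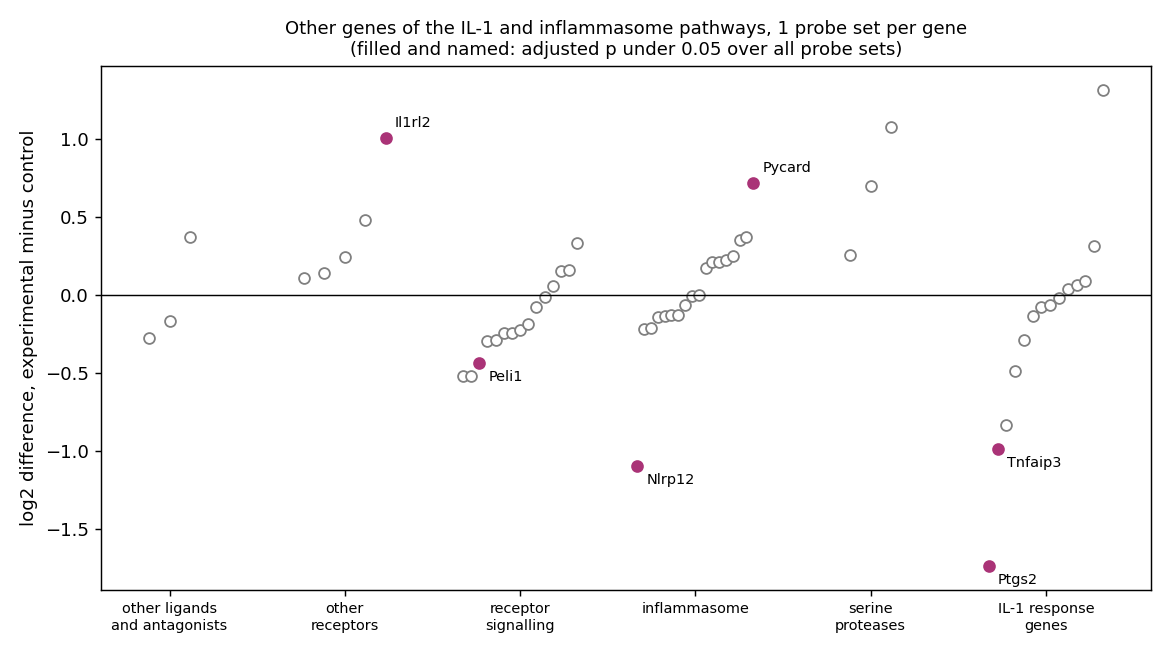
Log2 difference, experimental minus control, of 58 other pathway genes in 6 lists, each by its brightest probe set. Filled points passed an adjusted p of 0.05: Il1rl2 and Pycard above 0, and Peli1, Nlrp12, Tnfaip3 and Ptgs2 below.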

How the data were processed

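Total RNA, 2.5 µg per sample, was labelled with biotin for Affymetrix arrays, per the labels' protocols. The deposited table holds log2 values per probe set, made by the authors with RMA (background correction, quantile normalization, summary of a probe set's probes), per the submitters' processing notes. Its version, and whether the 8 arrays were normalized together, are not given in the sources used here. Quantile normalization can hide a shift common to all genes, and RMA compresses differences of dim probe sets.

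From 45101 probe sets, 64 Affymetrix controls were left out. Of the 45037 tested, 34945 carried 1 symbol in the platform annotation, 932 several and 9160 none. All 18 member probe sets were kept for testing, since no filter on low values was used. For counts by gene, the probe set of highest mean over the 8 arrays stood for the gene.

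Experimental minus control was fitted with limma 3.58.1 in R 4.3.3 (lmFit, eBayes, group only), adjusted by Benjamini-Hochberg over all probe sets. The fit was also run on simulated arrays with independent noise. Those arrays lacked the correlated deviations described next, so the run does not test the fit under them. Precision is limited by having 4 arrays per group. Same-numbered arrays deviated together from their group means in all 4 pairs (correlations across probe sets 0.20 to 0.26). A fit with replicate number as a block was therefore run beside the main, unpaired one. Its value is given where it changes a member's call, and for the other pathway genes only the count is given. Between the groups, arrays of the other number in the same code style correlated at 0.14 to 0.26 and those of the other style at -0.27 to -0.13. Each group was centred on its own mean, which by itself gives part of the opposite signs.

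The members, gene lists, gaps and motifs were chosen with earlier results of these data known. Named beside the members were, per list, genes past the threshold (up to 6) or else the 2 brightest, and the 5 nearest profiles to each member that passed; other list genes named were chosen after their values were seen.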

Additional observations from a re-analysis of the deposited data

Results flagged for a closer look

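In a group of 4 arrays, the highest or lowest value was singled out where its distance to the nearest other, as a share of the group's range, exceeded Dixon's critical value. Chance does this in about 1 of 20 groups, and it occurred in 4 of 56 groups. Casp1 in control replicate 3 read 8.63, below the other controls at 9.02 to 9.09. Il18bp in the same array read 7.99, below 8.21 to 8.25. The dim Il1rap probe set 1439697_at read 3.15 there, above 2.63 to 2.67. Nlrp12 in control replicate 2 read 9.17, above 8.54 to 8.63.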

How the results depend on the processing

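Il1b passed under every alternative run except within replicates 1 and 2 alone, and the sign of every called member probe set held in every run that included it. The cut at a mean of at least 6 left out Il1rap 1449585_at. The settings also covered array weights, a trended and robust eBayes, 2 cuts on mean signal, and centring or quantile-normalizing the arrays again. Probe sets past the threshold numbered 1162, and 2277 with the replicate block, 2582 with code style as a block, 130 within replicates 1 and 2, 418 within replicates 3 and 4, and 395 to 1744 without 1 array. Member probe sets past it numbered 3, and 4 with the replicate block, 0 within replicates 1 and 2 (n = 2 per group, limma), 1 within replicates 3 and 4, and 1 to 4 without 1 array. Other pathway genes past it numbered 6, and 10 with the replicate block, 12 with code style as a block, 0 within replicates 1 and 2, 2 within replicates 3 and 4, and 2 to 9 without 1 array. The fits without an array or within a style use fewer arrays; for the other changes the cause was not tested. The block changed no other member's call than that of Il1rap at 1421843_at. Signs opposite to the full fit appeared within replicates 1 and 2 for Il1rn 1425663_at (0.088) and Il18rap 1456545_at (0.077), within replicates 3 and 4 for Il18 (0.18) and Il1rap 1439697_at (-0.39), all without passing. Without 1 array, 1439697_at ran from -0.11 to 0.20.

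The gap of Il1b to Il1rap passed with the mean of each gene's probe sets (-1.09, exact p = 0.0286), an average that holds 2 dim Il1rap probe sets, which made the Il1rap difference smaller (-0.45). Within the code styles, the gap of Il1b to Il18 was -0.39 and -1.95, and that of Il18 to Il18rap -0.99 and 0.62. Without 1 array the gap changes ran from -1.34 to -0.999 (Il1b to Il1rn), -1.64 to -1.15 (Il1r2), -2.001 to -1.64 (Il1r1), -0.98 to -0.61 (Il1rap), -1.96 to -1.45 (Il1a), -1.48 to -0.90 (Il18), -0.36 to 0.04 (Il18 to Il18rap) and -1.16 to -0.75 (Nlrp3 to Casp1). Sets in which the exact p was under the threshold numbered 8 of 8 for Il1rn and Il1r1, 4 for Il1r2, Il1a and Nlrp3 to Casp1, 1 for Il1rap and 0 for the other 2 gaps. With p adjusted over the gaps in each set, they numbered 3 of 8 for each of the first 5. In those 5 gaps the groups were apart with all arrays and so stayed apart in every set. These counts therefore do not test their separation. The gap of Il18 to Il18rap turned to 0.042 without control replicate 1 and 0.015 without experimental replicate 2. With p adjusted over the 7 gaps other than that to Il1a, the changes of -1.18 (Il1rn), -1.40 (Il1r2), -1.83 (Il1r1) and -0.99997 (Nlrp3 to Casp1) had an adjusted p of 0.050, not under the threshold. The 4 sign-flipped pairs (smallest p 0.125) cannot reach it. Probe sets near the array floor, such as Il1a, limit what can be seen of their genes.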
